A study of Mus musculus with 4 samples.

Results

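Replication and mitosis genes were followed in peritoneal leukocytes of mice given chow (the CD group) or high-fat food (the HFD group). The 34 genes were chosen by name from the 33696 genes of the expression matrices, and each symbol matched 1 gene. Of these, 13 act in DNA replication and 18 in mitosis, and Ccna2, Mki67 and Stmn1, which span both phases, were kept as a group of 3. All animals were labelled WT, the diets began at 4 weeks of age and lasted 3 months, and lavage cells were sorted for the leukocyte surface protein CD45. A treatment note in the labels puts both groups on the high-fat diet, whereas titles and series design separate CD from HFD and name chow for CD; the titles were followed. The number of mice and any pooling are not given in the sources used here. Each diet has 1 expression library and 1 B-cell receptor library, so a difference below is one between 2 libraries with no replicate check and no test. All intervals are 95% intervals that cover counting error only.

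A dividing cell first copies its DNA and then condenses and separates its chromosomes. Replication genes are switched on at entry into S phase, largely by E2F transcription factors, and mitotic genes later, largely through CHR and CCAAT promoter elements bound by the DREAM and MuvB complexes and by NF-Y. Large peritoneal macrophages, the resident macrophages of the cavity, and its innate-like B-1 cells are both known to maintain themselves in part by local division.

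Promoters of 6 members are shown because they hold the elements that set the 2 groups apart. RefSeq windows (assembly GRCm38.p6) from 250 bases before to 50 bases after the start site were matched by symbol for 11 of 13 replication members, 16 of 18 mitosis members and 1 of the other 3. Mcm4, Ccne2, Aurkb, Tpx2, Ccna2 and Stmn1 had no entry. Motifs searched on both strands were E2F (TTTCCCGC, TTTCGCGC, TTTGCCGC or TTTGGCGC), CHR (TTTGAA) and CCAAT; a site read from both strands can overlap itself. Each line gives the 160 bases before the start, 5′ to 3′ on the strand of the gene, with motif letters of either strand in capitals. The stretches are chr8:75109349-75109508 (plus strand) for Mcm5, chr1:128359706-128359865 (minus) for Mcm6, chr10:69352913-69353072 (minus) for Cdk1, chr11:99024190-99024349 (minus) for Top2a, chr4:118437344-118437503 (minus) for Cdc20 and chr2:164769769-164769928 (plus) for Ube2c.
Mcm5: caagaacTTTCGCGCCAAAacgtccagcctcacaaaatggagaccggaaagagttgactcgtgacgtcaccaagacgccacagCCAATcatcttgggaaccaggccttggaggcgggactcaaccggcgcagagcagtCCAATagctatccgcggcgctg
Mcm6: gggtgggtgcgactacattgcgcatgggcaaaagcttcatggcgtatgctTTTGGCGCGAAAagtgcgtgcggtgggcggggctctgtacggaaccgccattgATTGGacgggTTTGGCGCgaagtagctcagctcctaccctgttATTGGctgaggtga
Cdk1: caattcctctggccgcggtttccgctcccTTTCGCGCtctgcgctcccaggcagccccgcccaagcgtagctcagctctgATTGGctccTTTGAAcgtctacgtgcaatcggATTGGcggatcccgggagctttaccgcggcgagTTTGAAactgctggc
Top2a: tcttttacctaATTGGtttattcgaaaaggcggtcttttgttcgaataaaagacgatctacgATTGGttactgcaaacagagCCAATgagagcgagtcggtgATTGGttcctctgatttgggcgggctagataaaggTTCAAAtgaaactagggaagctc
Cdc20: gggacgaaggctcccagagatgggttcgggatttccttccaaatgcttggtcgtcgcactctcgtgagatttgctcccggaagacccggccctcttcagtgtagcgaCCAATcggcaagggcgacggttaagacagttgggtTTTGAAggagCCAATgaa
Ube2c: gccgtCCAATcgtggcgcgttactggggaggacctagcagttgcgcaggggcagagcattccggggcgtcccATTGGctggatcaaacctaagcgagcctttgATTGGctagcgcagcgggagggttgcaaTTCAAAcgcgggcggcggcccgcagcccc

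An E2F match stood in 4 of 12 windows of replication members (33.3%) and in 1 of 16 windows of mitosis members (6.25%), that of Cdk1, against 2.26% of all 32851 windows of the table. A CHR match stood in 1 of 12 replication windows (8.33%), that of Mcm2, and in 11 of 16 mitosis windows (68.8%), against 17.9% of all. CCAAT stood in 75% and 87.5%, against 37.4% of all. Of 40 further replication genes 32 were matched, and their 39 windows held E2F letters in 33.3% and CHR letters in 17.9%. Of 51 further mitosis genes 43 were matched, and their 48 windows held them in 8.33% and 72.9%. A match is a run of letters, not a site of binding, and no match says only that these letters are not in this window.

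Members were counted as unique molecular identifiers (UMIs) in 3 classes of barcodes. Large macrophages (2144 in CD, 1477 in HFD) had 5 or more UMIs over Adgre1, Prg4, Alox15 and Garnl3, T cells (1018 and 771) had 2 or more over Cd3e, Cd3d and Cd3g, and both were absent from the receptor table. B cells (4800 and 2719) had exactly 1 heavy and 1 light receptor contig and met neither rule. Marker lists were read in each class as counts per 1000000 UMIs (CPM). The 8 macrophage markers summed to 46488 CPM in CD and 41996 CPM in HFD macrophages, against 1445 and 1423 CPM in T cells and 721 and 851 CPM in B cells. Lyz2 made up most of each sum, at 42449 and 38507.5 CPM in macrophages. Fcna (1226 and 508 CPM), Vsig4 (363 and 119), Timd4 (220 and 91.4) and Csf1r (438 and 376) stood lower in HFD macrophages. Icam2 (1033 and 1298 CPM), Cd5l (664 and 968) and Gata6 (94.7 and 130) stood higher. The 8 T markers summed to 2638 and 3233 CPM in T cells, against 69.6 and 26.6 CPM in macrophages and 475 and 564 CPM in B cells. Most of the sum in B cells was Cd2, at 446 and 534 CPM. The 6 B markers summed to 9326 and 9899 CPM in B cells. All markers of these 3 lists had UMIs in all 3 classes. The 2 neutrophil markers had 5 UMIs in CD and 2581 UMIs in HFD B cells (0.199 and 142 CPM), and the 3 NK markers stood at 404 and 654 CPM in T cells. Their part in the values below was not tested. Erythroid markers had 0 UMIs and mesothelial markers at most 1 UMI in macrophages.

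Depth differed between the libraries, with medians of 4873 and 12309 UMIs per macrophage, 3721 and 5045 per T cell, and 4519.5 and 5713 per B cell. Shares of barcodes are therefore given after thinning each barcode to 2000 UMIs. RNA of B cells also differed: all 6 B markers were found in macrophages of both libraries, summing to 1085 CPM in CD and 245 CPM in HFD, and in T cells, at 2525 and 839 CPM, in CD close to the 2638 CPM of their T markers. Lyz2, a macrophage gene, stood in B cells at 1.44% (CD) and 1.95% (HFD) of its macrophage level. The matrices share 30 barcodes, and without them the macrophage shares below were 2.17% and 10.6%.

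Large macrophages of the HFD library held more RNA of nearly every member. Replication members summed to 163 CPM in CD and 323 CPM in HFD, a log2 ratio of HFD over CD of 0.99 (0.92 to 1.06). Mitosis members summed to 92.5 and 255 CPM, a log2 ratio of 1.46 (1.37 to 1.55). In such sums, fewer cells with a transcript and less of it per cell cannot be told apart. All 34 members had 20 or more UMIs over both libraries, the minimum for a ratio, and 33 stood higher in HFD, where 43.9% of all 12707 genes did. A log2 ratio of 1 or more was reached by 9 of 13 replication and 14 of 18 mitosis members, where 3.68% of all genes reached it. The median log2 ratio was 1.09 for replication members and 1.51 for mitosis members, against -0.05 for all genes. In proportion to Cd79a, Cd79b and Ms4a1, B-cell RNA would bring 27.7 CPM of replication and 5.87 CPM of mitosis members into CD macrophages and 7.22 and 2.88 CPM into HFD macrophages, amounts that lie higher in CD.

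**Figure D1:**
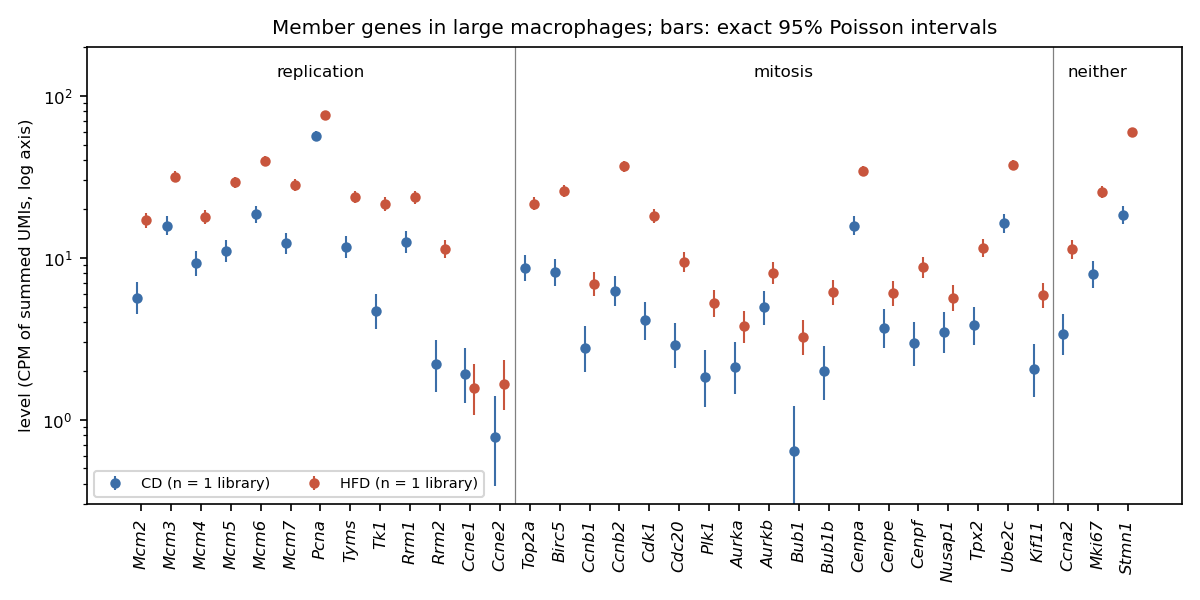
Level of each member in large macrophages (CPM of summed UMIs, log axis) in the CD and HFD libraries, 1 library each, with exact 95% Poisson intervals; the interval of Bub1 in CD runs below the axis. The HFD point is the higher one in 33 of 34 members, all but Ccne1.

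Among replication members of macrophages, the subunits of the MCM helicase, which unwinds DNA at the fork, all stood higher in HFD. Mcm2 stood at 5.67 CPM in CD and 17.0 CPM in HFD (log2 1.59, 1.23 to 1.95), and Mcm5 at 11.1 and 29.3 CPM (1.40, 1.15 to 1.67). Mcm7 followed at 1.19 (0.95 to 1.45), Mcm6 at 1.10 (0.89 to 1.30), Mcm4 at 0.94 (0.65 to 1.24), and Mcm3 stood at 15.8 and 31.6 CPM, with an interval of the log2 ratio from 0.78 to 1.23, below that of Mcm2. The enzymes that supply deoxynucleotides spread further. Rrm2, the small subunit of ribonucleotide reductase, had 31 UMIs in CD and 232 in HFD, or 2.20 and 11.3 CPM (2.37, 1.82 to 2.96), while Rrm1, the large subunit, had 177 and 482 UMIs (0.91, 0.66 to 1.17). Thymidine kinase Tk1 stood at 4.68 and 21.5 CPM (2.20, 1.83 to 2.60), and thymidylate synthase Tyms at 11.6 and 23.7 CPM (1.03, 0.77 to 1.29). Rrm2 and Tk1 thus had intervals above those of the other enzymes. Pcna, the sliding clamp of the polymerases, was detected in 26.7% of CD and 46.4% of HFD macrophages, unthinned and at unequal depth, and had a smaller ratio, 56.1 against 75.6 CPM (0.43, 0.30 to 0.55). The E cyclins, which drive entry into S phase, were sparse. Ccne1 had 27 and 32 UMIs (-0.29, -1.08 to 0.50), so that no difference was detectable at this depth, and Ccne2 had 11 and 34 (1.09, 0.08 to 2.22).

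All 18 mitosis members of macrophages stood higher in HFD, each with an interval above 0. Ccnb2, a B cyclin, stood at 6.24 CPM in CD and 36.6 CPM in HFD, a log2 ratio of 2.55 (2.23 to 2.89). Its kinase Cdk1 stood at 4.11 and 18.1 CPM (2.14, 1.74 to 2.56), and the other B cyclin, Ccnb1, at 2.76 and 6.90 CPM (1.32, 0.80 to 1.87). Barcodes with a UMI went from 1.07% to 9.41% for Ccnb2 and from 1.17% to 11.5% for Cdk1, unthinned. Cdc20 and Ube2c, which work with the anaphase-promoting complex, had log2 ratios of 1.70 (1.21 to 2.22) and 1.19 (0.98 to 1.41). The spindle checkpoint kinase Bub1 had 9 and 66 UMIs (2.34, 1.33 to 3.53), and Bub1b, of the same checkpoint, a ratio of 1.62 (1.02 to 2.27). Aurora kinases were at the lower end, Aurka at 0.82 (0.20 to 1.48) and Aurkb at 0.70 (0.29 to 1.13). Their partners stood higher, Tpx2, which activates Aurora A, at 1.59 (1.15 to 2.04) and Birc5, the survivin subunit of the Aurora B complex, at 1.67 (1.38 to 1.97). Polo-like kinase Plk1 stood at 1.51 (0.88 to 2.18).

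Of the chromosome and spindle proteins, Top2a, which disentangles sister chromatids, stood at 8.65 CPM in CD and 21.6 CPM in HFD (1.32, 1.03 to 1.62). Cenpa, the centromeric histone, stood at 15.8 and 34.4 CPM (1.12, 0.90 to 1.35). The kinetochore proteins Cenpe and Cenpf had log2 ratios of 0.72 (0.24 to 1.21) and 1.56 (1.06 to 2.08), the spindle protein Nusap1 one of 0.71 (0.21 to 1.22) and the spindle motor Kif11 one of 1.51 (0.92 to 2.15). Members of neither group were close to each other: cyclin A2 (Ccna2) at 1.73 (1.28 to 2.21), the proliferation antigen Mki67 at 1.69, with 112 and 523 UMIs, and the microtubule regulator Stmn1, with 18.4 and 59.4 CPM, at 1.69 (1.49 to 1.89). Leaving out macrophages with 2 or more UMIs over Cd79a, Cd79b and Ms4a1, all 33 members with an interval above 0 still stood above 0, 32 of them with their interval.

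More macrophage barcodes of the HFD library held member UMIs. After thinning, 41 of 1894 CD macrophages, or 2.16% (1.56 to 2.93), and 149 of 1413 HFD macrophages, or 10.5% (8.99 to 12.3), had 3 or more, a difference of 8.38 points (6.70 to 10.2). Thinning left out 250 and 64 shallower macrophages, and unthinned the shares were 13.9% and 42.9%. No class that should lack these genes was set beside them, and the part of free RNA in either share was not tested. In B cells the same thinned shares were 2.65% in CD, which lay inside the interval of the CD macrophages, and 3.77% in HFD, which lay below that of the HFD macrophages. With 3 or more mitosis UMIs the macrophage shares were 0.686% (0.366 to 1.17) and 4.53% (3.51 to 5.75).

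**Figure D2:**
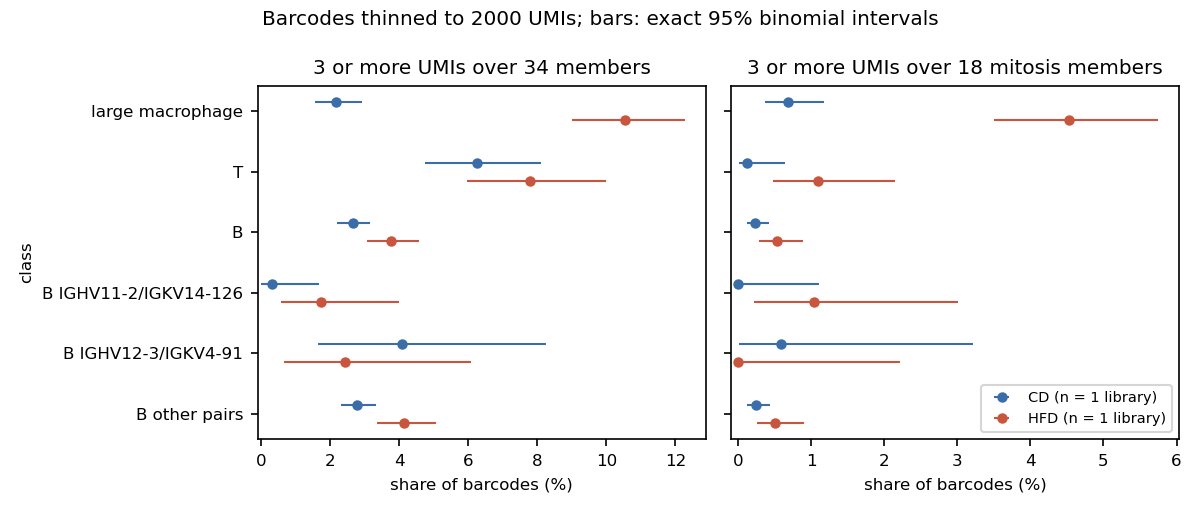
Share of barcodes (percent) with 3 or more UMIs over all 34 members (left) or the 18 mitosis members (right) in each class, thinned to 2000 UMIs, with exact 95% binomial intervals and 1 library per diet. HFD macrophages stand at 10.5% and 4.53%, above the intervals of CD macrophages in both panels.

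Thinned macrophages with 3 or more UMIs of both groups were fewer than those with 3 or more of either group alone, but unthinned they outnumbered those with mitosis UMIs only. After thinning, 24 CD macrophages, or 1.27% (0.81 to 1.88), had 3 or more replication UMIs only, and 51 in HFD, or 3.61% (2.70 to 4.72). Mitosis UMIs only were found in 9, or 0.475% (0.218 to 0.900), and 44, or 3.11% (2.27 to 4.16). Both were found in 4, or 0.211%, and 20, or 1.42%. Unthinned, 24 CD and 149 HFD macrophages had 3 or more of both, against 15 and 58 with mitosis UMIs only and 190 and 314 with replication UMIs only. After thinning, mitosis-only barcodes were thus fewer than replication-only barcodes in CD and close to them in HFD. Unthinned, they were far fewer in both libraries. For each replication UMI there were 0.569 mitosis UMIs in CD against 0.790 in HFD (log2 0.47, 0.36 to 0.58), and 0.320 and 0.749 after thinning (1.23, 0.95 to 1.51).

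**Figure D3:**
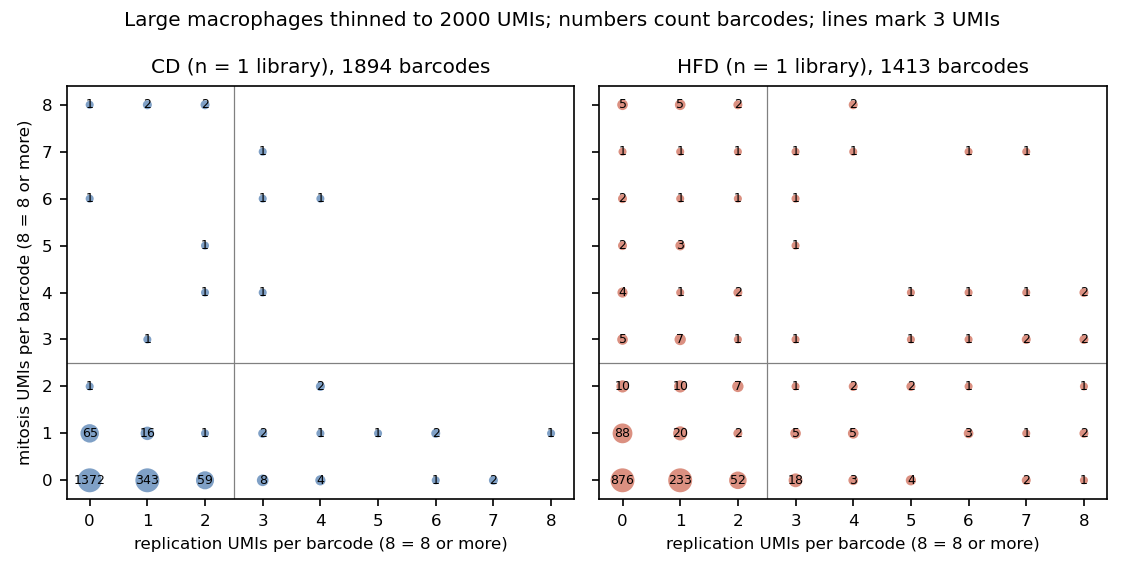
Replication and mitosis UMIs per large macrophage thinned to 2000 UMIs, with counts of 8 or more drawn at 8; numbers count barcodes, dot area is capped and lines mark 3 UMIs. Beyond both lines lie 4 of 1894 CD and 20 of 1413 HFD barcodes.

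Few macrophages carried most of the mitosis UMIs. Barcodes with 10 or more were 15 of 2144 in CD, or 0.700% (0.392 to 1.15), and 97 of 1477 in HFD, or 6.57% (5.36 to 7.95), a difference of 5.87 points (4.63 to 7.27) at unequal depth. They held 70.1% and 81.3% of the mitosis UMIs of their class. The highest single barcode held 259 UMIs in CD, 19.8% of the total, and 278 in HFD, 5.34% of it. Replication UMIs were spread more widely, with 1 or more in 50.2% of CD and 71.9% of HFD macrophages. Macrophages high in mitosis UMIs were deep, with medians of 15858 and 20758 UMIs against 4860 and 11832.5 in the rest. At that unequal depth, their UMIs of the macrophage rule had medians of 62 and 119 against 36 and 90. As CPM, the genes of the rule stood lower in macrophages with 10 or more UMIs of the further mitosis genes. They stood there at 6674 against 8498 CPM in the rest in CD, and at 7330 against 8523 CPM in HFD.

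Within bands of depth the mitosis difference was present in the middle and small at the top. From 4000 to 8000 UMIs (707 and 306 barcodes) mitosis members stood at 41.4 CPM in CD and 156 CPM in HFD, a log2 ratio of 1.91 (1.63 to 2.20). From 8000 to 16000 UMIs (429 and 464 barcodes) they stood at 46.5 and 195 CPM (2.07, 1.86 to 2.28). At 16000 or more (155 and 538 barcodes) they had 814 and 3818 UMIs, or a log2 ratio of 0.19 (0.08 to 0.30), and without the highest barcode of each library at 181 and 279 CPM (0.63, 0.50 to 0.76). From 2000 to 4000 UMIs the ratio was 1.33, from 34.3 and 86.5 CPM, and from 1000 to 2000 it was -0.14 (-1.38 to 0.94), with 60 HFD barcodes. Replication members stood higher in HFD in all 5 bands, at 1.42, 0.38, 0.53, 0.78 and 0.93 from the shallowest to the deepest, and only the interval at 2000 to 4000 UMIs held 0.

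**Figure D4:**
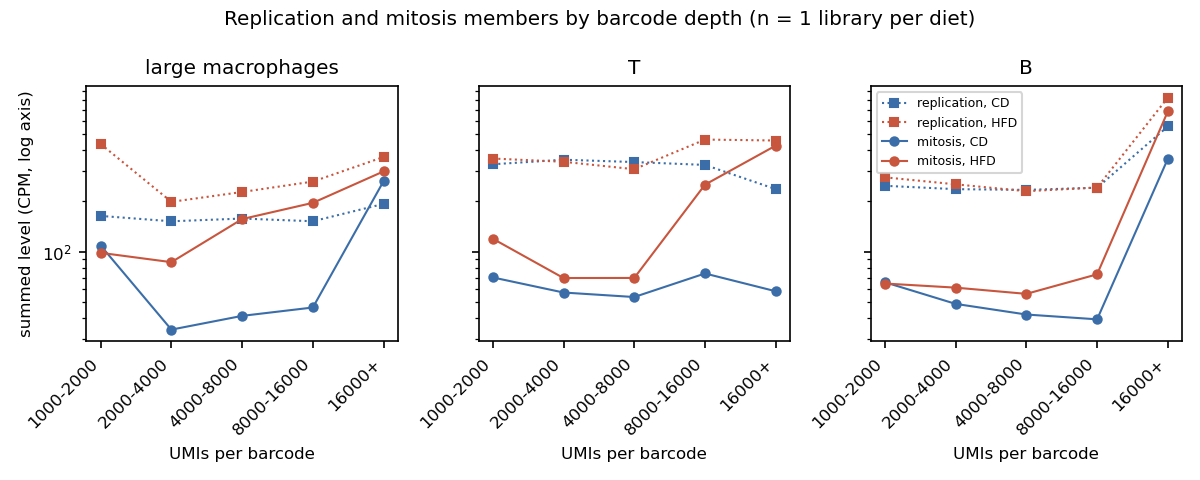
Summed level of replication (squares) and mitosis (circles) members by UMIs per barcode in macrophages, T and B cells (CPM, log axis), 1 library per diet; the deepest T band holds 17 CD and 11 HFD barcodes. In macrophages of 8000 to 16000 UMIs the mitosis level is 46.5 CPM in CD and 195 CPM in HFD, and at 16000 or more the log2 ratio is 0.19.

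Macrophages were also divided by the 51 mitosis genes that are not members. These genes had 5665 UMIs in CD macrophages, of which Pttg1 had 1011 and Bub3 983, and neither Pttg1 nor Bub3 stood higher in HFD. A limit of 3 UMIs of the 51 genes took 33.0% of CD and 64.2% of HFD macrophages. The split went with depth, with medians of 9766 and 16801 UMIs from the limit upward against 3719 and 5961 below. Above it mitosis members stood at 149 and 303 CPM (1.02, 0.93 to 1.11), below it at 23.6 and 40.4 CPM (0.77, 0.44 to 1.11). A limit of 10, chosen after seeing the data, took 36 barcodes (1.68%) in CD and 217 (14.7%) in HFD, with median depths of 18748 and 24048 UMIs. Above that limit replication members stood at 632 and 806 CPM (0.35, 0.20 to 0.50), and mitosis members at 1457 and 868 CPM, lower in HFD (-0.75, -0.85 to -0.64). Below it replication members stood at 140 and 162 CPM (0.21, 0.12 to 0.30) and mitosis members at 28.1 and 51.4 CPM (0.87, 0.69 to 1.05). The limit is a fixed count at unequal depth, so that CD and HFD barcodes above it were not picked alike. Of CD macrophages, 1 held 259 mitosis UMIs, where the 36 together held 927. In T and B cells mitosis members above the same limit stood higher in HFD. They stood at 129 and 1154 CPM in T cells (3.16, 2.74 to 3.61) and at 979 and 1794 CPM in B cells (0.87, 0.70 to 1.05). Barcodes above the limit held 17.5% of replication and 71.0% of mitosis UMIs of CD macrophages, and 62.2% and 84.8% of those of HFD macrophages. By member, they held 60.6% of Tk1 UMIs in CD and 91.1% in HFD, but 9.22% and 48.2% of Pcna UMIs.

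Ccnb2 and Cdk1, singled out after their values were seen, were the members whose interval lay above 1 below the limit of 10. Ccnb2 had 17 UMIs in 12 of 2108 CD macrophages and 164 UMIs in 65 of 1260 HFD macrophages, or 1.26 and 10.7 CPM (3.08, 2.36 to 3.90). Cdk1 had 15 UMIs in 14 and 90 UMIs in 77 barcodes, or 1.11 and 5.86 CPM (2.40, 1.60 to 3.29). Of the other members in the same barcodes, 9 had an interval above 0, Stmn1 at 1.21 (0.82 to 1.61) with the highest of these ratios, then Mki67 (0.99, 0.36 to 1.65), Mcm2 (0.83, 0.40 to 1.27) and Ube2c (0.81, 0.31 to 1.33). Bub1, with 1 UMI left in CD, had the ratio of Cdk1 but an interval from -0.65 to 7.92, Pcna stood at -0.03 (-0.18 to 0.11), and Ccne1 had an interval below 0. Among thinned macrophages with 0 UMIs of the 16 other mitosis members, Ccnb2 was found in 4 of 1798 CD and 23 of 1233 HFD barcodes, or 0.222% and 1.87%, a difference of 1.64 points (0.93 to 2.57). Cdk1 was found in 0.278% and 1.70% of them, a difference of 1.43 points (0.73 to 2.33). Stmn1 was found in 1.61% and 3.81%, a difference of 2.20 points (1.04 to 3.51), so that the pattern was not limited to Ccnb2 and Cdk1. The 0 was judged after thinning, and such barcodes can hold UMIs of the 16 members at full depth. These shares therefore cannot show Ccnb2, Cdk1 or Stmn1 apart from the other mitosis members.

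T cells of the 2 libraries were closer in replication members. These summed to 333 CPM in CD and 369 CPM in HFD (log2 0.15, 0.05 to 0.25). The 12 with 20 UMIs, 9 of them above 0 where 46.2% of all genes were, had a median of 0.22, against -0.03 over all 11102 genes. None of the 12 reached a log2 ratio of 1, where 2.48% of all genes did, and 11 of their intervals held 0. Rrm2 was the exception, at 5.72 and 11.2 CPM (0.96, 0.26 to 1.70). Tk1 (0.76, -0.08 to 1.62) and Mcm2 (0.42, -0.02 to 0.85) came next, and Mcm3 (-0.14, -0.51 to 0.22), Mcm4 (-0.08, -0.41 to 0.25) and Tyms (-0.06, -0.65 to 0.52) were lowest. Mcm5, Mcm6, Mcm7, Pcna, Rrm1 and Ccne1 lay between them, and Ccne2 had 7 and 8 UMIs.

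Mitosis members of T cells summed to 60.4 CPM in CD and 143 CPM in HFD, a log2 ratio of 1.25 (1.04 to 1.46). Over all 18, each with a UMI in both libraries, the median was 1.96. Of those with 20 UMIs over both libraries Cenpf was highest, with 1 UMI in CD and 22 in HFD (4.56, 1.93 to 9.93), then Ccnb2 with 4 and 30 (3.01, 1.51 to 4.98) and Ube2c with 8 and 55 (2.89, 1.81 to 4.17). Lowest of them were Cenpa, at 28.0 and 32.8 CPM (0.23, -0.12 to 0.58), Cdk1 (0.69, -0.17 to 1.58) and Top2a (1.12, 0.63 to 1.62). Birc5, Cdc20, Aurkb, Nusap1, Tpx2 and Kif11 lay between them, and Ccnb1, Plk1, Aurka, Bub1, Bub1b and Cenpe had under 20 UMIs, among them Bub1b with 1 and 10 (3.43, 0.61 to 8.87). Of the other 3 members, Ccna2 had 3 and 30 UMIs (3.43, 1.74 to 5.78), Mki67 22 and 49 (1.26, 0.51 to 2.06) and Stmn1 199 and 324 (0.81, 0.55 to 1.07).

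Most mitosis UMIs of HFD T cells lay in 7 barcodes. T cells with 10 or more were 1 of 1018 in CD and 7 of 771 in HFD (0.81 points apart, 0.16 to 1.77). The 7 held 66.6% of the class total. They had 24 to 120 mitosis UMIs and 4 to 43 UMIs of the Cd3 genes. Of the 7, 2 had 13 and 14 Cd8 UMIs and no Cd4 UMI, and 4 had 1 to 5 Cd4 UMIs and no Cd8 UMI. They had at most 1 UMI of the macrophage rule and at most 3 of B markers, whereas the CD barcode had 33 B-marker UMIs. Of the 7, 6 had 3 or more Lyz2 UMIs, as did 76.7% of the other HFD T cells. Median depth was 14985 UMIs in the 7 and 5027 in the others. In the 34 HFD T cells with 10 or more UMIs of the further mitosis genes, the 8 macrophage markers summed to 2970 CPM and the T markers to 2823 CPM, against 1276 and 3272 CPM in the rest, and monocyte markers stood at 759 against 464 CPM. The part of macrophage or monocyte RNA in these barcodes was not tested. Leaving out barcodes with 10 or more UMIs of the further mitosis genes, 34 in each library, mitosis members stood at 54.2 and 47.7 CPM (-0.18, -0.47 to 0.10) and replication members at 310 and 317 CPM (0.03, -0.08 to 0.14).

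After thinning, 6.26% (4.74 to 8.10) of CD and 7.80% (5.96 to 9.98) of HFD T cells had 3 or more member UMIs, a difference of 1.53 points (-0.98 to 4.13) that was not detectable at this depth. Unthinned, the shares were 27.6% and 35.7%. With 3 or more mitosis UMIs there was 1 of 862 in CD and 8 of 731 in HFD, or 0.116% and 1.09%, a difference of 0.98 points (0.22 to 2.03). T cells with Cd4 UMIs had mitosis members at 60.5 and 320 CPM (2.40, 2.04 to 2.78), those with Cd8 UMIs at 64.7 and 110 CPM (0.77, 0.36 to 1.19), and those with Trdc, a gamma-delta receptor gene, at 45.3 and 36.1 CPM (-0.33, -1.49 to 0.78). In HFD, 4 barcodes held 276 of the 341 mitosis UMIs of the cells with Cd4, and 2 held 116 of the 174 of the cells with Cd8. Without barcodes of 10 or more mitosis UMIs, chosen after seeing the data, the levels were 60.5 and 63.9 CPM with Cd4 (0.08, -0.42 to 0.58). With Cd8 they were 64.7 and 37.6 CPM (-0.79, -1.32 to -0.26). This left out 4 HFD barcodes with Cd4 and 2 with Cd8, but 0 CD barcodes in either subset. Because barcodes were picked by the UMIs compared, only the HFD level could fall. The interval with Cd8 therefore does not show a lower level in HFD. Thinned shares with 3 or more member UMIs were 5.83% and 13.3% with Cd4, 7.47 points apart (1.56 to 13.8), and 8.02% and 6.96% with Cd8 (-1.06 points, -6.53 to 4.03). B-cell RNA, in proportion to its markers, would bring 13.5 CPM of mitosis members into CD and 8.22 CPM into HFD T cells.

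**Figure D5:**
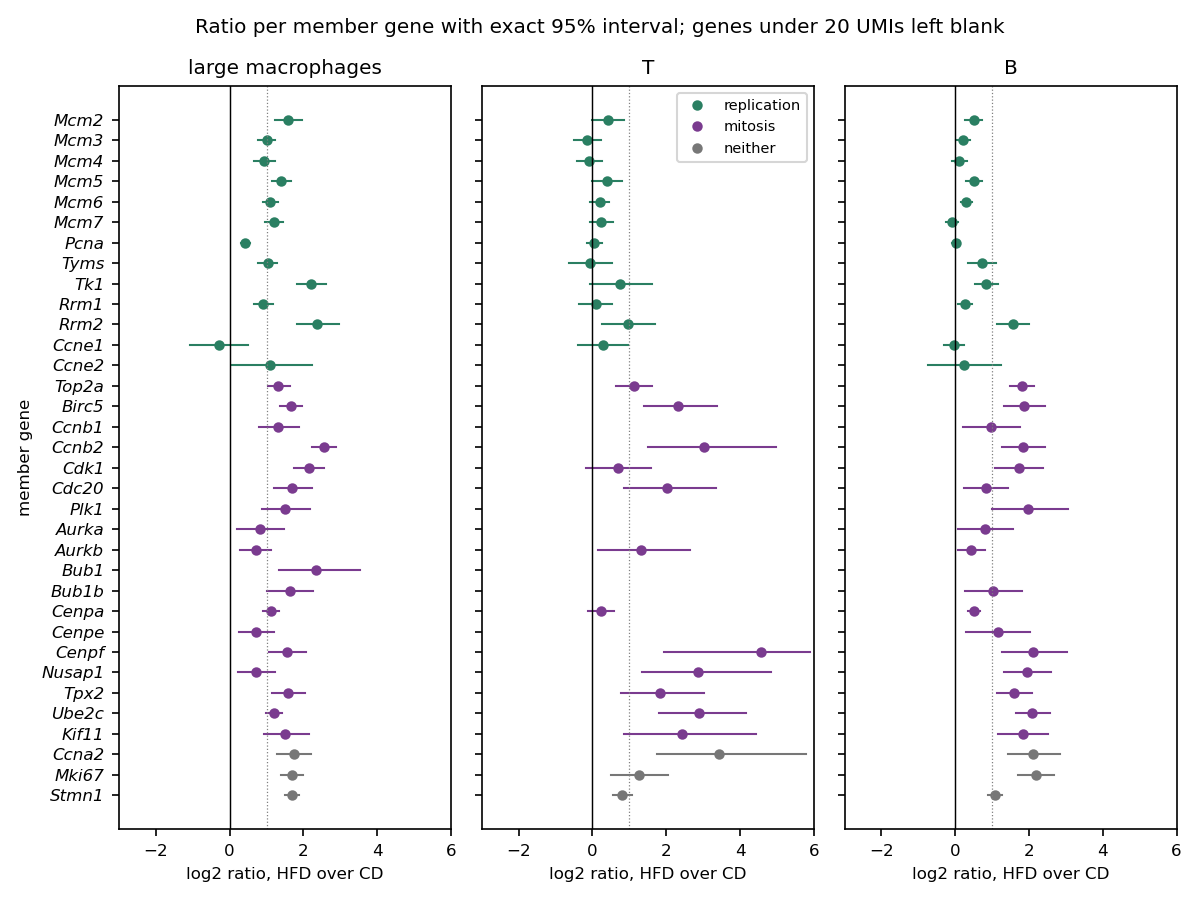
Log2 ratio of HFD over CD for each member in macrophages, T and B cells with exact 95% intervals, 1 library per diet; members under 20 UMIs are blank, a dotted line marks 1, and the Cenpf interval in T cells runs past the axis. Median ratios of replication members are 1.09, 0.22 and 0.27 in the 3 classes.

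B cells also differed more in mitosis than in replication members. Replication members summed to 244 CPM in CD and 283 CPM in HFD, a log2 ratio of 0.21 (0.16 to 0.26), with 11 of 13 members above 0 where 58.2% of all genes were, and a median of 0.27 against 0.05 over all 12791 genes. Of these, Rrm2 reached a log2 ratio of 1, with 66 and 141 UMIs (1.57, 1.14 to 2.01), where 3.45% of all genes did. Tk1 (0.84, 0.53 to 1.15) and Tyms (0.73, 0.35 to 1.11) came next, and Mcm7 (-0.08, -0.25 to 0.09), Ccne1 (-0.04, -0.31 to 0.23) and Pcna, at 73.4 and 73.9 CPM (0.01, -0.09 to 0.11), were lowest. Mcm2, Mcm3, Mcm5, Mcm6 and Rrm1 had intervals above 0, and those of Mcm4 and Ccne2 held 0.

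Mitosis members of B cells summed to 51.8 CPM in CD and 113 CPM in HFD, a log2 ratio of 1.12 (1.02 to 1.22), with a median of 1.76 over all 18. Cenpf was highest of those with 20 UMIs, with 16 and 50 UMIs (2.12, 1.28 to 3.03), then Ube2c with 54 and 166 (2.09, 1.64 to 2.56) and Plk1 with 12 and 34 (1.97, 0.99 to 3.06). Lowest were Aurkb (0.44, 0.07 to 0.81), Cenpa, at 24.3 and 34.4 CPM (0.50, 0.34 to 0.66), and Aurka (0.81, 0.08 to 1.55). Top2a, Birc5, Ccnb1, Ccnb2, Cdk1, Cdc20, Bub1b, Cenpe, Nusap1, Tpx2 and Kif11 lay between them, and Bub1 had 3 and 14 UMIs. Ccna2, Mki67 and Stmn1 stood at 2.12 (1.44 to 2.84), 2.18 (1.71 to 2.68) and 1.08 (0.90 to 1.25). In proportion to Lyz2, macrophage RNA would bring 1.33 CPM of mitosis members into CD and 4.96 CPM into HFD B cells, and without B cells of 3 or more Lyz2 UMIs the mitosis median was 2.61 and the replication median 0.56.

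Thinning made the B-cell difference smaller. Thinned shares with 3 or more member UMIs were 2.65% (2.21 to 3.15) in CD and 3.77% (3.08 to 4.57) in HFD, 1.12 points apart (0.30 to 2.02). This difference depended on the limit and the depth, with intervals that held 0 at a limit of 2 UMIs (1.38 points, -0.15 to 2.95), at a limit of 5 (0.30, -0.061 to 0.75) and when thinned to 1000 UMIs (0.0705, -0.34 to 0.55). Unthinned they were 18.5% and 27.8%. With 3 or more mitosis UMIs there were 11 of 4719 and 14 of 2651, or 0.233% (0.116 to 0.417) and 0.528% (0.289 to 0.884). Thinned mitosis members had 472 and 395 UMIs (0.58, 0.38 to 0.77). Of members with an unthinned interval above 0, Ccnb1, Aurka, Aurkb and Mcm3 turned to the lower side in HFD, at -0.58, -0.43, -0.26 and -0.02. Ccne2 and Mcm4, whose unthinned intervals held 0, did so too, at -0.49 and -0.004. Mitosis UMIs per replication UMI were 0.212 and 0.398 (0.91, 0.80 to 1.02), and 0.215 and 0.296 thinned (0.46, 0.24 to 0.68).

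Several B barcodes high in mitosis UMIs shared a receptor. Those with 10 or more were 8 of 4800 in CD and 17 of 2719 in HFD (0.46 points apart, 0.17 to 0.84), holding 23.3% and 53.6% of mitosis UMIs. All 8 and all 17 had an IGHM heavy contig. A clone was defined by the same V and J genes and CDR3 nucleotides in both chains. In clones of 2 or more barcodes lay 7 of the 8, or 87.5% (47.3 to 99.7), and 13 of the 17, or 76.5% (50.1 to 93.2). Of all B cells 46.7% and 41.9% did. The 8 came from 4 clones and the 17 from 12. Barcodes of the same clone are not independent, so that these intervals are too narrow. In CD, 4 of the 8 belonged to a clone of 6 with IGHV2-2 and IGKV8-24, with 10 to 22 mitosis UMIs each at 3161 to 6302 UMIs in all, and 2 were the whole of a clone with IGHV1-64 and IGKV4-59. In HFD, 10 of the 17 lay in 5 clones, 2 in each. Both barcodes of the clone with IGHV9-3 and IGKV4-57-1 were high, with 20 and 22 mitosis UMIs, as were both with IGHV5-12 and IGKV1-117, with 16 and 28.

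Receptor pairs typical of phosphatidylcholine-binding B-1 cells gave unlike summed levels. Cells with IGHV11-2 and IGKV14-126 (332 in CD, 291 in HFD) had mitosis members at 27.2 and 170.0 CPM (2.64, 2.25 to 3.06) and replication members at 174 and 293 CPM (0.75, 0.57 to 0.93). Median depth was 5651 and 8095 UMIs. After thinning, 1 of 332 and 5 of 289 had 3 or more member UMIs (1.43 points, -0.27 to 3.70). With 3 or more mitosis UMIs there were 0 and 3 (1.04 points, -0.29 to 3.01), so that neither difference in shares was detectable. Of all 9116 genes compared in these cells, 3.46% reached a log2 ratio of 1. Top2a had 1 and 88 UMIs (6.18, 3.66 to 11.5) and Stmn1 2 and 143 (5.88, 4.00 to 8.94). Rrm2 had 0 and 57 UMIs, at least 15.6-fold higher when 3 counts over the group, or 1.41 CPM, stand for the 0. On the same floor Ccna2 was at least 7.41-fold, Cenpf at least 6.59-fold and Birc5 at least 5.49-fold higher. These values lay in few cells: 4 HFD barcodes and 0 CD barcodes had 10 or more mitosis UMIs (1.37 points apart, -0.04 to 3.48). The 4 held 78.0% of the HFD total of mitosis UMIs. Of the 4, 2 belonged to a clone of 79 barcodes, with 134 and 174 mitosis UMIs. Without that clone mitosis members stood at 27.2 and 54.4 CPM, with an interval of the log2 ratio from 0.52 to 1.49, and replication members had a ratio of 0.41 (0.20 to 0.61). Without the 4 barcodes mitosis members stood at 27.2 and 38.6 CPM (log2 0.50) and replication members at 174 and 176 CPM (0.01, -0.19 to 0.22).

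In cells with IGHV12-3 and IGKV4-91 (171 in CD, 165 in HFD) neither replication nor mitosis members differed detectably. Replication members summed to 295 and 258 CPM (-0.19, -0.41 to 0.02). Mitosis UMIs were 60 and 85, or 0.168 and 0.232 per replication UMI (0.47, -0.05 to 0.99), and 0 barcodes of either library had 10 or more, with exact upper bounds of 2.13% and 2.21%. Stmn1 stood higher in HFD, with 8 UMIs in 5 barcodes and 29 UMIs in 6 (1.63, 0.46 to 2.97). In cells with all other pairs there were 0.219 and 0.379 mitosis UMIs per replication UMI (0.79, 0.67 to 0.92), and in those with IGHV11-2 and IGKV14-126 there were 0.156 and 0.580 (1.89, 1.46 to 2.33). The difference between receptor groups was not tested.

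Further genes of both processes in macrophages stood on the same side. Of 40 other replication genes 39 were above 0 and 16 at a log2 ratio of 1 or more, with a median of 0.76, where 43.9% and 3.68% of all genes were. Highest were Clspn, which signals stalled forks (18 and 120 UMIs, log2 2.20), Uhrf1, which maintains DNA methylation at the fork (2.15, 1.63 to 2.72), and Cdc45, part of the active helicase (2.02, 1.31 to 2.81). Lowest were Pold1 (-0.21, -0.46 to 0.04), Rfc2 (0.03, -0.14 to 0.21) and Rpa1 (0.04, -0.20 to 0.29). Of 51 other mitosis genes 48 were above 0 and 27 at 1 or more, with a median of 1.05. The kinase Pbk had 9 and 100 UMIs (2.94, 1.96 to 4.11), Cdca3 stood at 1.89 (1.41 to 2.40), and the kinase Nek2 and the transcription factor Foxm1 tied at 1.88. Lowest were the phosphatase Cdc25b, at 11.6 and 5.67 CPM (-1.03, -1.38 to -0.67), securin Pttg1 (-0.41, -0.54 to -0.29) and Bub3 (-0.05, -0.16 to 0.07).

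Regulators of entry into the cycle were mixed. Of 6 D cyclins and kinases, Cdk6 stood at 13.2 CPM in CD and 28.8 CPM in HFD (1.13, 0.88 to 1.37), Ccnd1 at 0.45 (0.38 to 0.52), Cdk4 at 0.36 (0.27 to 0.46), Cdk2 at 0.25 (-0.07 to 0.58), Ccnd3 at 0.05 (-0.02 to 0.12) and Ccnd2 at 15.9 and 6.70 CPM (-1.24, -1.56 to -0.93). Of 13 kinase inhibitors, pocket proteins and antiproliferative genes 5 were above 0, a share near the 43.9% of all genes, with a median of -0.14. Of the 4 INK4 inhibitors 3 led, Cdkn2a at 19.8 and 57.6 CPM (1.54, 1.35 to 1.73), Cdkn2c at 304 and 921 UMIs (1.06, 0.88 to 1.26) and Cdkn2b at 0.67 (0.43 to 0.92), while Cdkn2d stood at -0.15 (-0.31 to 0.02). Lowest were the inhibitors Cdkn1c (-0.88, -1.25 to -0.53) and Cdkn1b (-0.51, -0.76 to -0.25) and the pocket protein Rbl2 (-0.41, -0.71 to -0.11). The part of B-cell RNA, higher in CD macrophages, in these values was not tested.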

How the data were processed

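The deposited matrices hold raw UMI counts per gene and barcode, written by Cell Ranger 8.0.1 per the file headers. Versions in the submitters' processing notes are 6.0.1 for Cell Ranger and 4.3.0 for Seurat, with genome mm39. Per the labels' protocols a 3' droplet kit was used, so levels were not compared between genes. The deposited receptor tables give contigs with their read and UMI counts.

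A barcode needed 300 genes and no more than 10% of its UMIs from mitochondrial genes, which left 13069 of 13227 in CD and 6684 of 6897 in HFD, with 73549582 and 57630074 UMIs before this filter. No doublet caller was run. A subset of T cells that had been planned as a reference for free RNA is not reported here. Barcodes that met the macrophage rule while in the receptor table (424 and 103), the T rule while there (360 and 148) or both rules (113 and 52) were left out of those classes. UMIs were summed per class and scaled to 1000000 (CPM). Ratios carry exact conditional Poisson intervals, shares Clopper-Pearson, differences of shares Newcombe, and mitosis per replication UMI log-scale intervals. Ratios needed 20 UMIs over both libraries and were called at a log2 of 1 or more, or -1 or less. Thinning drew 2000 UMIs per barcode without replacement.

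Named genes were every member in macrophages, the 3 highest and 3 lowest per group in T and B cells, and the 3 highest and 3 lowest of each further list in macrophages. Members and lists were chosen with earlier results of these data known. Alternatives covered thinning, UMI limits, barcode filters, class rules, weights and scaling. Those on single high barcodes, shared barcodes, mitosis UMIs in place of members, a band of depth and the limit of 10 further mitosis UMIs were chosen after seeing the data. So were T subsets without high barcodes, and cells with IGHV11-2 and IGKV14-126 without high barcodes or without the clone of 79. The code was tested on simulated data. Python 3.11.15, numpy 2.4.6, scipy 1.17.1, pandas 2.3.3 and matplotlib 3.10.9 were used.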

Additional observations from a re-analysis of the deposited data

How the results depend on the processing

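Of 118 recomputed shares, medians and ratios of the 2 groups of members, 73 stayed close to the reported value, 43 moved and 2 turned. The macrophage difference in shares was 29.0 points without thinning, 4.89 at 1000 and 12.46 at 4000 UMIs, 10.2 and 5.21 with limits of 2 and 5 UMIs, and 3.84 with mitosis UMIs alone. The T difference was 8.06 points without thinning. The B difference was 9.32 without thinning, 0.0705 at 1000 and 3.29 at 4000 UMIs, and 0.30 with mitosis UMIs alone. Thinning gave medians of 0.88 (replication) and 2.14 (mitosis) in macrophages, 0.0514 and 0.69 in T cells and 0.83 (mitosis) in B cells. These cover only members that still had 20 UMIs, 11 and 10 in macrophages, 10 and 2 in T cells and 9 (mitosis) in B cells. They are thus medians over other sets of members than the unthinned ones. Thinned log2 ratios of mitosis per replication UMI were 1.23, 0.79 and 0.46. With equal weight per barcode, replication medians were 0.85, 0.0019 and 0.18 in macrophages, T and B cells, and mitosis medians 1.42 in T and 0.94 in B cells. Without barcodes holding markers of another lineage, medians were 1.56 and 1.34 in macrophages, 2.38 (mitosis) in T cells and 0.56 and 2.61 in B cells. In B cells this took 43.6% of CD and 75.0% of HFD barcodes with under 10 mitosis UMIs, but 25% and 41.2% of those with 10 or more. With 1 UMI in each library the T mitosis median was 1.96. At 800 genes and 5% mitochondrial UMIs the B replication median was 0.34. Without Mcm5 and Pcna the macrophage mitosis per replication ratio was 0.27. Of the alternatives chosen after seeing the data, leaving out the highest barcode of each library gave mitosis medians of 1.74 in macrophages and 1.69 in T cells and a macrophage mitosis per replication ratio of 0.71. Barcodes of 4000 to 16000 UMIs gave medians of 0.79 and 2.07 in macrophages and 0.10 and 0.78 in B cells. Without barcodes of 10 or more further mitosis UMIs, medians were 0.34 and 0.47 in macrophages, -0.063 and -0.32 in T cells, where both turned, and 0.10 and 0.38 in B cells; the cause was not tested. Of 371 recomputed member ratios, 292 stayed close, 75 moved and 4 turned, where only a ratio whose reported interval excluded 0 could count as turned. All 4 were in thinned B cells: Ccnb1 at -0.58, Aurka at -0.43, Aurkb at -0.26 and Mcm3 at -0.0161. Ratios whose interval held 0 also changed side when thinned, among them Cdk1 (-1.50) and Rrm1 (-0.43) in T cells and Ccne2 (-0.49) in B cells.

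No paired analysis was possible because each diet has 1 library. Depth limits the sparse members most, with intervals several log2 units wide at under 20 UMIs, and UMIs of 1 barcode are not independent, so that intervals of sums carried by few barcodes are too narrow.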

Other observations

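The further lists were also read in lymphocytes. In T cells 21 of 35 other replication genes were above 0, with a median log2 ratio of 0.09, and 25 of 28 other mitosis genes, with a median of 0.32 and 7 at 1 or more, where 46.2% of all genes were above 0 and 2.48% at 1 or more. In B cells 31 of 39 other replication genes were above 0, with a median of 0.17, and 43 of 47 other mitosis genes, with a median of 0.89 and 20 at 1 or more, where 58.2% and 3.45% of all genes were. B cells in clones of 2 or more barcodes had mitosis members at 58.8 CPM in CD and 157 CPM in HFD (1.42, 1.28 to 1.56), and those alone in their clone at 46.7 and 77.2 CPM (0.73, 0.58 to 0.88). In HFD, 1 clone of 79 barcodes held 341 mitosis UMIs, with 134 and 174 in 2 of its barcodes. Thinned shares with 3 or more member UMIs did not follow the same order. They were 2.69% and 3.64% in clones of 2 or more (0.96 points, -0.27 to 2.37). Alone in their clone they were 2.62% and 3.86% (1.25 points, 0.15 to 2.46). B cells with IGHM had mitosis members at 52.0 and 114 CPM (1.13, 1.03 to 1.24). Those with IGHD stood at 61.4 and 75.9 CPM (0.30, -0.66 to 1.27) and those with IGHG or IGHA at 41.9 and 58.1 CPM (0.47, -0.48 to 1.36), so that no difference was detectable in either.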
